A study of Mus musculus with 19 samples.

Results

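Bzw2 is measured on this array by 3 probe sets, 1424608_a_at, 1423456_at and 1443227_at, out of 45037 probe sets that are not controls. The gene is 1 of 18193 with a probe set of its own. All 3 carry the symbol Bzw2 in the platform annotation, and the gene was chosen by their signals in the developing mouse ovary, which part from each other at gestation day (gd) 16. The values described here are therefore the ones that led to the choice, and the levels of the 3 probe sets between stages are given as a description with no test, apart from the comparison of gd12 with gd11. All 3 probe sets passed the filter on low values, which asked for a mean signal above 116.05 (the median of all ovary values) in at least 1 stage. On the working label, 1424608_a_at was indeed far higher from gd16 on. The other probe sets were lower at pnd2 than at gd11, but between gd14 and gd16, where the label places a parting, their arrays overlapped and neither mean was lower.

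The series followed the whole ovary of wild-type CD-1 mice, an outbred strain, with 3 arrays at each of 6 stages: gd11, gd12, gd14, gd16, gd18 and postnatal day (pnd) 2. Its question was how expression changes from one stage to the next. A single further array, at pnd 0.5, held RNA pooled from whole animals (4 males and 4 females) and has no replicate. Each ovary sample was female, untreated, amplified in 2 rounds and hybridized to the Affymetrix Mouse430_2 array. The series text describes a pair of ovaries of 1 animal per sample and a separate dam for each, with gd11 samples 18 and 19 as the exception, since they shared a dam. The sample labels instead record a pool size of 3 at gd11, gd12 and gd14 and no pooling later, so whether the early samples are pools is unsettled. At gd11 the mesonephros was left attached to the gonad in samples 16 and 18 and is not named for sample 19. In whole ovaries, fewer cells of a type and less RNA per cell cannot be told apart.

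The protein encoded by Bzw2, also called 5MP1 or eIF5-mimic protein, ends in a W2 domain, the fold with which the translation factor eIF5 holds eIF2 and other partners at the ribosome. Bzw2 and its close relative Bzw1 lack the catalytic part of eIF5, which triggers hydrolysis of the GTP carried by eIF2. They are known to compete with eIF5 in the preinitiation complex and so to make start codon choice stricter. They have also been linked to translation of the stress factor ATF4. Between the stages studied, female germ cells end proliferation, enter meiosis, arrest and, around birth, become the oocytes of primordial follicles, a period in which stored and repressed mRNAs are a known feature of the germ line.

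In RefSeq, on build GRCm38.p6, Bzw2 lies at chr12:36091835-36156841 on the minus strand. The positions of the 3 probe sets within the gene were not analysed here, so it is not stated which exon, intron or UTR each one reads. In Affymetrix naming, the ending _a_at marks probes shared by several transcripts of the same gene. The promoter is shown as the sequence at the annotated start of this gene, whose probe sets changed unequally. The window runs from 250 bases before a RefSeq start to 50 bases after it, at chr12:36156776-36157075, written 5′ to 3′ on the minus strand. Capitals mark CACGTG, the palindromic E-box, and GGGCGG, the core of GC boxes bound by Sp factors.
Bzw2 promoter: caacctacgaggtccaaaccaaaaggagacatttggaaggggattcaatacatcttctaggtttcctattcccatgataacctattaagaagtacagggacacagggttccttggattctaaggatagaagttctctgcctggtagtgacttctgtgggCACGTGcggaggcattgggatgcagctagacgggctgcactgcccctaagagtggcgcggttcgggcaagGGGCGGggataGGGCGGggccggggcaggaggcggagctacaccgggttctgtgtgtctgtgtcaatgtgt
The E-box begins 91 bases before the start, and the GC boxes begin 21 and 10 bases before it. Searched on both strands, CACGTG was held by 7.15% of 32851 promoter windows of the same length and GGGCGG by 35.7%. The looser E-box CANNTG, which includes every CACGTG, had 2 sites in this window and was held by 72.3% of windows. CCAAT had 1 site, on the other strand, and was held by 37.4%, and TATAAA had none here and was held by 13.6%. A match is of letters only and says nothing about binding. Ankmy2, on the plus strand, begins 282 bases beyond the end of Bzw2, so the genes are arranged head to head.

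One gd16 array and the gd16 arrays as a group stood apart from the rest. On gd16 sample 7 the signal of Xist, the RNA that coats the inactive X chromosome of females, was 44.79, against 11306.42 to 18576.15 on the other 17 ovary arrays. The Y-linked genes Eif2s3y, Kdm5d and Uty were within the range of those 17 arrays, at 23.72, 64.42 and 29.44. The main results at gd16 are therefore given without this sample too. Every array was scaled by the authors to the same trimmed mean of 500. The highest signal was 67575.3, 78139.59 and 90180.45 on the gd16 arrays and between 40789.49 and 54586.8 on the other 15 ovary arrays. The gd16 arrays correlated with each other at 0.9532 to 0.9603, and arrays within any other stage at 0.9568 to 0.9796. The part of these differences in the gd16 results was not tested. RNA quality, read as the 3′ over 5′ signal ratio of the housekeeping gene Gapdh, moved with stage. This ratio was between 2.987 and 3.28 on the gd11 arrays, between 4.092 and 4.963 on those of gd14, between 4.275 and 5.592 on those of gd16 and between 5.068 and 5.408 on those of pnd2. Its part in the results below was not tested.

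Probe set 1424608_a_at was dim until gd12 and bright from gd16. Its signal was 240.74, 291.93 and 441.32 on the gd11 arrays and 403.33, 445.61 and 411.47 at gd12. At gd14 it was 1655.97 in sample 10 and 393.54 and 448.26 in samples 11 and 12. Sample 10 alone was above the range of the earlier stages, and the other gd14 arrays lay within it. At gd16 the signal was 10503.55 in sample 7, 21435.47 in sample 8 and 24647.31 in sample 9. The lowest gd16 array was thus above the highest gd14 array. At gd18 the arrays gave 39003.16, 33293.52 and 27475.13, and at pnd2 34330.90, 37669.28 and 41746.97. All gd18 arrays were above all gd16 arrays, while gd18 and pnd2 overlapped. These late signals lie near the top of what an array showed, and whether signals there are compressed was not tested. The whole-animal array gave 530.48, close to the level of the early ovary.

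The stage means ± SD of 1424608_a_at (3 arrays each) were, from gd11 to pnd2, 324.66 ± 104.22, 420.14 ± 22.433, 832.59 ± 713.59, 18862 ± 7414.7, 33257 ± 5764.1 and 37916 ± 3714.2. Ordered from high to low the stages ran backwards in time, and the neighbours pnd2 and gd18, gd14 and gd12, and gd12 and gd11 did not differ beyond the spread of their arrays. The mean at gd16 was 22.7-fold that at gd14, a difference of 4.66 on the scale of log2(signal + 31), which is the scale of all log2 values here and understates changes of dim probe sets. Without gd16 sample 7, whose signal was the lowest of its stage, the ratio was 27.7, and without gd14 sample 10 it was 44.8. Without both samples, a setting chosen after the data were seen, the ratio of gd16 to gd14 was 54.7. From gd16 to gd18 the ratio was 1.76 and from gd18 to pnd2 it was 1.14. Over the longer interval, pnd2 was 45.5-fold above gd14, or 90.1-fold without gd14 sample 10, and 117-fold above gd11. The whole step from gd16 to pnd2 was 2.01-fold.

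Probe set 1423456_at moved the other way, slowly and by little. Its signal was 885.17, 530.85 and 767.15 at gd11, 605.39, 373.84 and 618.78 at gd12, and 295.89, 477.35 and 366.96 at gd14. It was 419.33, 419.83 and 400.62 at gd16, then 346.68, 424.24 and 324.17 at gd18 and 309.29, 268.36 and 335.26 at pnd2. The means were 727.72 ± 180.42, 532.67 ± 137.71, 380.07 ± 91.437, 413.26 ± 10.949, 365.03 ± 52.498 and 304.3 ± 33.728 from gd11 to pnd2. Arrays of consecutive stages overlapped at every step, whereas each gd11 array was above each pnd2 array and the gd11 mean was 2.39-fold the pnd2 mean. Between gd14 and gd16 the mean differed by 1.09-fold (0.14 on the log2 scale), and without gd16 sample 7 by 1.08-fold.

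Probe set 1443227_at was dim on every array. Its arrays gave 247.45, 288.77 and 320.06 at gd11, 354.11, 252.01 and 341.94 at gd12, and 145.13, 157.59 and 212.08 at gd14. They gave 152.34, 282.68 and 146.33 at gd16, 210.66, 144.14 and 215.61 at gd18, and 79.63, 115.31 and 141.42 at pnd2. The means were 285.43 ± 36.42, 316.02 ± 55.767, 171.6 ± 35.606, 193.78 ± 77.045, 190.14 ± 39.911 and 112.12 ± 31.018. This probe set was lower at 2 steps whose arrays did not overlap: gd12 was 1.84-fold above gd14, and gd18 was 1.70-fold above pnd2. At the step from gd14 to gd16 its mean differed by 1.13-fold (0.11 on the log2 scale) with overlapping arrays, and without gd16 sample 7 by 1.25-fold. From gd11 to pnd2 it was 2.55-fold lower, much as 1423456_at was. Over the step from gd12 to gd14 the mean summed signal of 4 mesonephros markers went from 1809 to 451.4, without overlap of arrays. That of 4 neuron markers went from 856.6 to 267.7, with overlapping arrays. Endothelium and macrophage sums were also lower at gd14, and those of germ cells, oocytes, granulosa lineage, erythroid cells and muscle were higher. The part of these tissues in the lower levels of either probe set was not tested.

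**Figure D1:**
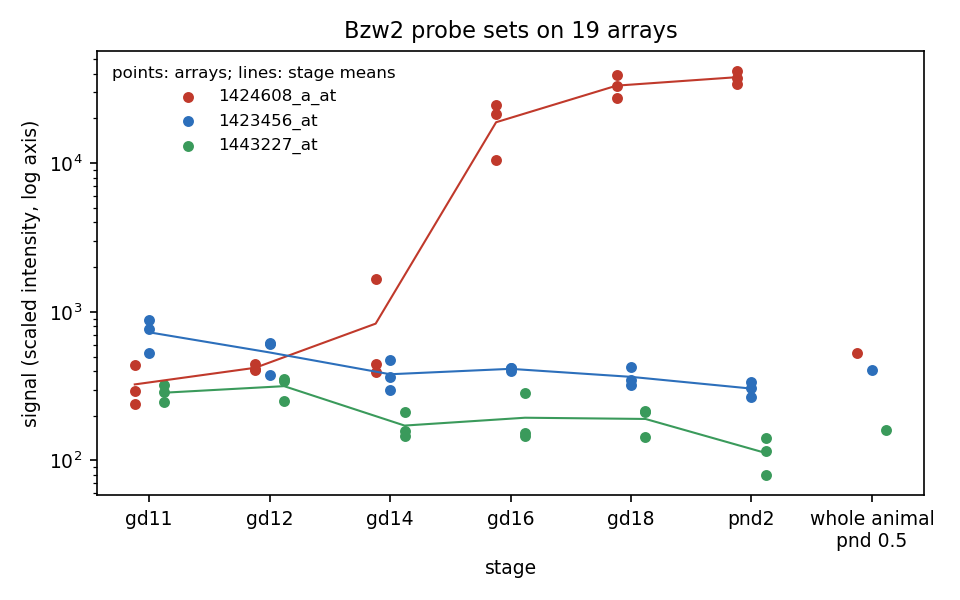
Signal of each Bzw2 probe set (scaled intensity, log axis) on the 18 ovary arrays by stage and on the whole-animal array; points are single arrays and lines join stage means. The 3 gd16 points of 1424608_a_at lie between 10503.55 and 24647.31, above all gd14 points, while the other probe sets stay between 79.63 and 885.17 on the ovary arrays.

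Only gd12 against gd11 was tested for Bzw2, a step before the one at which its probe sets part. The signals at these stages were among those by which the gene was chosen. The test is therefore not independent of that choice. None of the 3 probe sets was called from gd11 to gd12, where 4.12% of 26431 tested probe sets were. The log2 difference was 0.38 ± 0.38 (SE) for 1424608_a_at, with an adjusted p of 0.649 from limma. It was -0.43 ± 0.21 for 1423456_at (adjusted p 0.293) and 0.13 ± 0.24 for 1443227_at (adjusted p 0.836). Both stages' arrays overlapped for each probe set.

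Taking the probe sets as a ratio within each array removes any scaling of that array, and only the change of the ratio between arrays is read here, since the brightness of different probes is not comparable. The ratio of 1424608_a_at to 1423456_at was 0.272 to 0.575 at gd11 and 0.665 to 1.19 at gd12. At gd14 it was 5.6 in sample 10, 0.824 in sample 11 and 1.22 in sample 12. On the gd16 arrays it was 25, 51.1 and 61.5, on the gd18 arrays it lay between 78.5 and 113, and on the pnd2 arrays between 111 and 140. The whole-animal array gave 1.31. The ratio of 1423456_at to 1443227_at, in contrast, kept to between 1.48 and 3.88 on all 18 ovary arrays, with 2.52 on the whole-animal array. Within the gene, then, 1424608_a_at parted from both of the others, and the ratio of those 2 varied far less.

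Across the 18 ovary arrays, log2 signals of 1423456_at and 1443227_at correlated at r = 0.68 (Spearman 0.72), and both ran against 1424608_a_at (r = -0.67 and -0.63). After the stage means were taken out the 3 values were 0.10, -0.37 and 0.02, so the first of these relations lay mostly between stages. The Gapdh ratio correlated with 1424608_a_at at 0.81, with 1423456_at at -0.81 and with 1443227_at at -0.75 over the same arrays. Within stages these were 0.08, -0.27 and -0.44. These arrays share stage, scaling and RNA quality, and the part of RNA quality in the differences between probe sets was not tested.

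Probe sets of the same gene seldom differ as those of Bzw2 did. Of 5641 genes with at least 2 tested probe sets, the change from gd14 to gd16 differed between probe sets of 1 gene by a median of 0.45 on the log2 scale, and by 1.24 at the 95th percentile. For Bzw2 the difference was 4.55, the largest of these genes, and without gd16 sample 7 it was 4.91 and again ranked 1. Next came Sall4, a zinc finger factor of germ cells, with 2.90, Lor, a protein of the skin barrier, with 2.55, and Pdlim5, which binds the actin cytoskeleton, with 2.54. At the other steps Bzw2 ranked lower, at 337 from gd11 to gd12 (a spread of 0.81), 88 from gd12 to gd14 (1.41), 397 from gd16 to gd18 (1.07) and 563 from gd18 to pnd2 (0.83). The first rank repeats the choice of the gene and is no test.

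Against the whole animal near birth, the pnd2 ovary was 71.5-fold higher for 1424608_a_at, which placed it at rank 24 of 26431 tested probe sets ordered by that log2 ratio. For 1423456_at and 1443227_at the whole animal was the higher, by 1.33-fold and 1.43-fold. One array without replicates gives no error for these ratios.

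Markers of the cell types in the ovary moved over the same interval. The summed signal of 6 oocyte markers lay between 652.8 and 791.3 at gd14, between 1270 and 3745 at gd16, between 6312 and 12600 at gd18 and between 19030 and 27030 at pnd2. From gd14 to gd16 it was 3.57-fold higher (4.46-fold without gd16 sample 7), against 22.7-fold for 1424608_a_at, and from gd14 to pnd2 it was 31.1-fold higher, against 45.5-fold. A sum is weighted to its brighter markers, and single markers differed. From gd14 to gd16 no marker mean rose by as large a factor as 1424608_a_at, and Nobox (11.24 to 209.9) came nearest. From gd14 to pnd2 Nobox (to 1277) and Zp3 (40.62 to 6569), both dim at gd14, rose by a larger factor. Lhx8 (137.5 to 6360) rose by a similar factor, and Figla (334.1 to 1947), Sohlh1 (78.26 to 2389) and Gdf9 (102.3 to 3376) by a smaller one. Of these 6 markers 3 rose at gd16, the transcription factors Nobox, Lhx8 and Sohlh1, where 11.4% of 12592 tested genes rose and 9.75% fell. The secreted factor Gdf9 and the zona pellucida protein Zp3, which mark growing oocytes, were still low at gd16 (means 142 and 35.54) and reached 3376 and 6569 at pnd2, so the Bzw2 signal was high before theirs. The summed signal of 6 germ cell markers ran the other way at this step, from 39850 to 45820 at gd14 to 14380 to 22760 at gd16, and 4 of the 6 fell. Without gd16 sample 7, a setting chosen for these markers after the data were seen, 4 oocyte markers rose, Figla being the addition, and 1 germ cell marker fell, the RNA-binding protein Dazl.

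Markers of other cells were read over the same step, from gd14 to gd16, where 11.4% of tested genes rose and 9.75% fell. A single call in a list of 4 markers is not read as a change of that cell type. Of 5 granulosa lineage markers 2 rose (summed signal 1.45-fold higher), of 4 tested erythroid markers 3 rose (3.64-fold), and of 4 tested macrophage markers 1 rose (1.74-fold). None of the tested markers of endothelium (5), mesonephros (4) or neurons (4) was called, and of 4 muscle markers 1 fell, the actin Acta1. Without gd16 sample 7 these counts were the same, except that 2 erythroid markers rose (summed signal 3.22-fold higher). Over all tested probe sets, 4965 were called at this step with the sample and 3740 without it. No marker of any list was at 0 at any stage. The erythroid sum, 3476 to 5306 at gd16, was down to 243.8 to 404.2 at pnd2, when 1424608_a_at was at its highest. Of the 3 gd16 arrays, sample 7 was the lowest for 1424608_a_at, for 6 of 6 oocyte markers and for 5 of 6 germ cell markers, against 32.8% of all tested probe sets. The part of cell composition in the Bzw2 values was not tested.

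**Figure D2:**
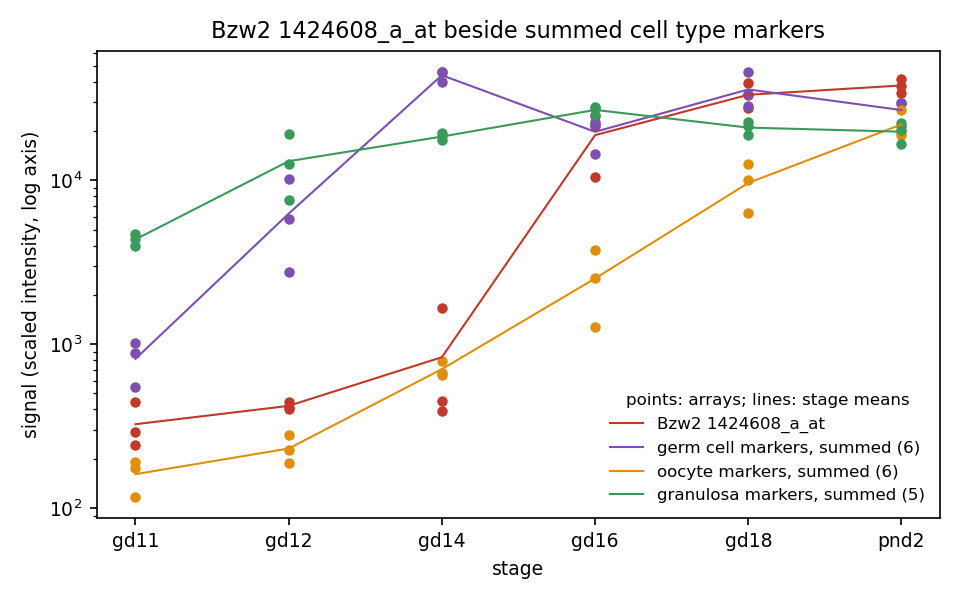
Signal of Bzw2 1424608_a_at and summed signals of germ cell (6), oocyte (6) and granulosa lineage (5) markers (scaled intensity, log axis) by stage; points are single arrays and lines join stage means. From gd14 to gd16 the Bzw2 mean goes from 832.59 to 18862 and the oocyte sum from 704 to 2517, while the germ cell sum goes from 43760 to 19770.

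The genes whose log2 signal was most like 1424608_a_at were found by Pearson correlation over the 18 ovary arrays, among 22160 tested probe sets annotated to 1 other gene. The 10 highest belonged to Spata33 (r = 0.968), Lhx8 (0.966), Tdrd9 (0.965), Ablim1 (0.964), Arpc5l (0.961), Tgoln1 (0.961), Nxnl2 (0.956), Sohlh1 (0.956), Ermp1 (0.956) and Ahr (0.955). Correlations above 0.9 were common, with 170 probe sets past that value, and the order within the first 10 has little meaning. By Spearman's measure 1 of these 10 stayed among the first 10, and by the 6 stage means none did. The arrays share stage and scaling, and a gene that rises late in ovary development will score high on this measure.

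Among these genes, Lhx8 and Sohlh1, transcription factors needed for early oocyte growth, had means of 137.5 ± 50.6 and 78.26 ± 15.5 at gd14, 983.4 ± 562 and 526.3 ± 189 at gd16, and 6360 ± 952 and 2389 ± 510 at pnd2. Tdrd9, a helicase that silences transposons in germ cells, went from 389.5 ± 9.69 at gd14 to 4052 ± 992 at gd16 and 8132 ± 2250 at gd18, and was at 4802 ± 1400 at pnd2. Ablim1, an actin-binding protein, Arpc5l, a subunit of the Arp2/3 complex, and Tgoln1, a protein of the trans-Golgi network, were well above the filter from gd11 on, with means of 653.7 ± 37.7, 4819 ± 602 and 2570 ± 255 at gd14 and 1564 ± 133, 7534 ± 166 and 4119 ± 103 at gd16. The log2 difference between gd14 and gd16 was smaller for each of the 10 than the 4.66 of Bzw2. On gd14 sample 10, where 1424608_a_at was high, 3 of 6 oocyte markers had the highest signal of the gd14 arrays. The share of all tested probe sets was 33%. The count was also 3 of 6 for germ cell markers, and it was 2 of 4 for mesonephros markers. It was 1 of 5 for granulosa and for macrophage markers, 1 of 6 for muscle and 0 for endothelium, erythroid cells and neurons.

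**Figure D3:**
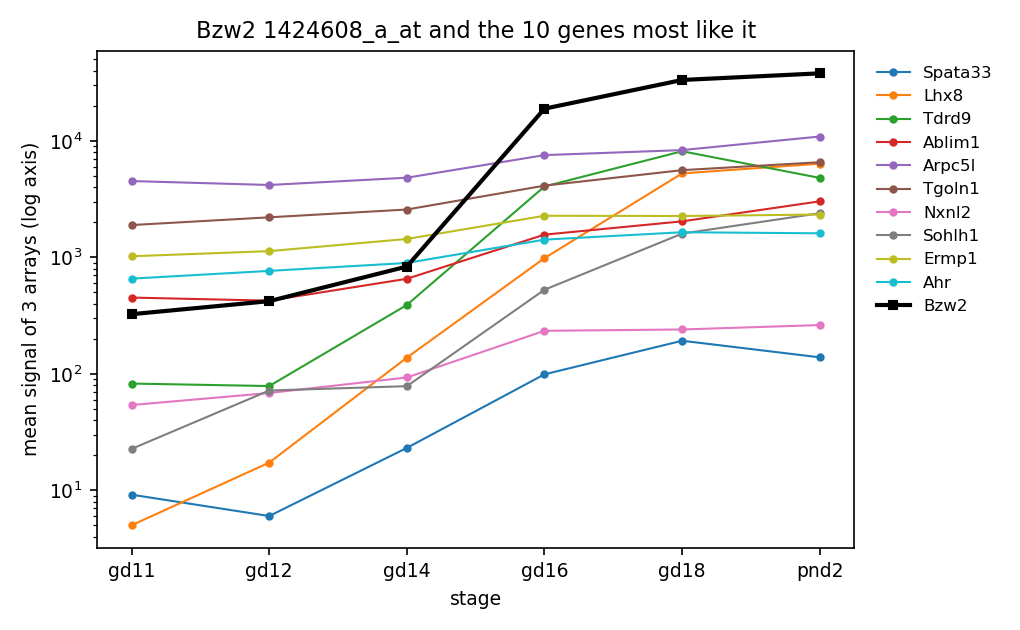
Mean signal of 3 arrays (scaled intensity, log axis) by stage for Bzw2 1424608_a_at (black squares) and the 10 genes with the highest Pearson correlation to it; the height of a line depends on its probe set and is not compared between genes. All lines are higher at gd16 than at gd14, and that of Bzw2 is the steepest there.

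The other probe sets of Bzw2 resembled quite different genes. For 1423456_at the first 4 were Ednrb, an endothelin receptor of neural crest cells (r = 0.918), the adaptor Pag1 (0.913), Sox11, a factor of neural and mesenchymal progenitors (0.908), and the hyaluronidase Cemip2 (0.908). Ednrb went from 2899 ± 2320 at gd11 to 322.1 ± 51.1 at pnd2 and Sox11 from 862.5 ± 203 to 90.18 ± 3.5. The highest signal of 1423456_at, 885.17, was on gd11 sample 16. On that array the summed signal of 4 neuron markers was 16720, against 744.2 and 1108 in gd11 samples 18 and 19. The part of this in the likeness and in the gd11 level of 1423456_at was not tested. For 1443227_at the first 4 were the adhesion molecule Ncam1 (0.932), the RNA-binding protein Nono (0.918), Nr2f2, a nuclear receptor of stromal cells (0.910), and the amino acid transporter Slc38a2 (0.904). Ncam1 had a mean of 654 ± 208 at gd12, 322.3 ± 75 at gd14 and 149 ± 50.2 at pnd2. Only 7 and 5 probe sets passed 0.9 for these probe sets, and by Spearman's measure 0 of 4 and 3 of 4 stayed among the first 4, 1 of the latter, Nono, tied at the last place.

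Of the 10 genes nearest to Bzw2 on chromosome 12, 5 on each side, 9 had a probe set and 7 were tested. Between gd14 and gd16 2 of them rose and none fell; the background was 11.4% and 9.75% of tested genes. Ahr, the aryl hydrocarbon receptor, a ligand-activated transcription factor, rose from 893.3 ± 113 to 1417 ± 225 (0.64 ± 0.17, adjusted p 0.0126), and it is also among the 10 genes most like 1424608_a_at. The call was lost without gd14 sample 12 (0.0566), without gd16 sample 8 (0.063) and with median scaling (0.0863). Sostdc1, a secreted inhibitor of BMP and Wnt signals, rose from 88.3 ± 14.7 to 213.6 ± 58.3 (1.02 ± 0.26, adjusted p 0.0103), and its adjusted p was 0.0516 without gd16 sample 8. Ankmy2, the head-to-head neighbour, was not called on its brightest probe set, which went from 439.1 ± 64.3 to 688.8 ± 155 (0.60 ± 0.21, adjusted p 0.051, and 0.0243 without gd16 sample 7). It was back at 483.7 ± 16.7 at gd18 and 403.5 ± 82.8 at pnd2, stages at which 1424608_a_at was at its highest. Its probe set 1451724_at rose by 0.57 ± 0.19 (adjusted p 0.0415) and 1425936_a_at was not called (-0.47 ± 0.37). Snx13 (-0.27), Agr3 (-0.31), Tspan13 (0.11) and Meox2 (-0.36) were not called.

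Bzw1, the close relative of Bzw2, had 5 probe sets, and they stayed together. From gd14 to gd16 their log2 differences ran from -0.21 to -0.57, all negative, and 1 of the 5 fell, where 9.10% of tested probe sets fell. This was 1450846_at, from 1528 ± 253 to 1014 ± 153 (-0.57 ± 0.16, adjusted p 0.0154), and the call was lost without gd14 sample 10 (adjusted p 0.0734), without gd16 sample 8 (0.0681) and when only the arrays compared were fitted (0.0578). The brightest, 1450845_a_at, fell one step earlier, from 6325 ± 370 at gd12 to 4938 ± 453 at gd14 (-0.36 ± 0.10, adjusted p 0.0173), where 7.05% of probe sets fell, and was 4358 ± 223 at pnd2. Without gd12 sample 13 or gd14 sample 10 this fall was not called (adjusted p 0.0901 and 0.0942). No probe set of Bzw1 was called higher at any step. Eif5, the factor that the Bzw proteins resemble, also had 5 probe sets, and 2 of them fell at gd16: 1433631_at from 4172 ± 428 to 2781 ± 279 (-0.58 ± 0.13, adjusted p 0.00437) and 1454663_at from 1181 ± 166 to 811.4 ± 127 (-0.53 ± 0.15, adjusted p 0.0232). The second of these was not called with only the arrays compared (0.0745) or without any one of gd14 samples 10 and 12 and gd16 samples 7 and 9 (0.0506 to 0.112). The other 3, among them the brightest, 1415723_at at 10010 ± 506 and 9415 ± 405, differed by -0.09 to -0.18 and were not called.

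**Figure D4:**
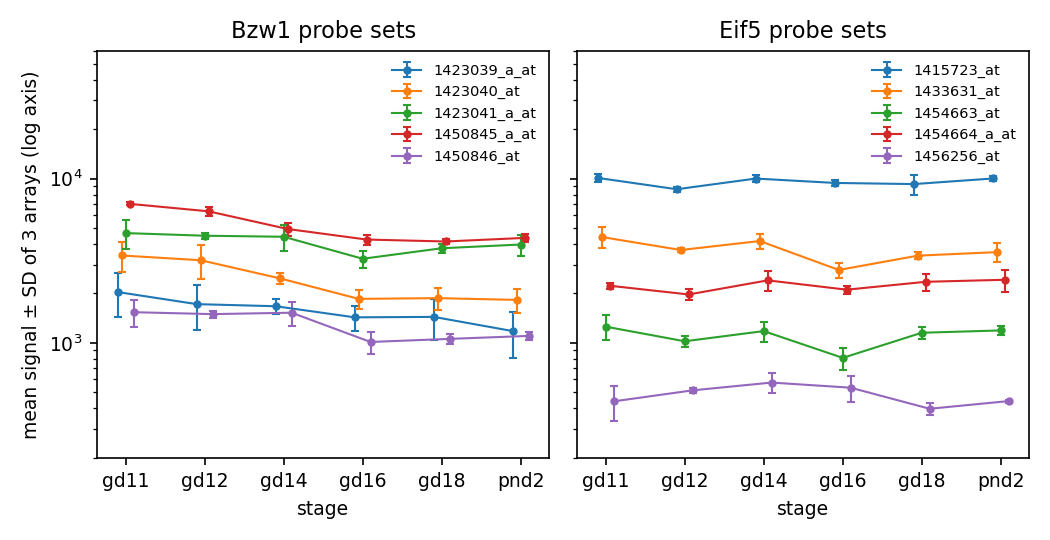
Mean signal ± SD of 3 arrays (scaled intensity, log axis) by stage for the 5 probe sets of Bzw1 (left) and of Eif5 (right). No line climbs at gd16 as that of Bzw2 1424608_a_at does; the brightest Bzw1 probe set goes from 7023 at gd11 to 4358 at pnd2 and the brightest Eif5 probe set from 10100 to 10020.

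Around these relatives stand 5 lists of translation genes, in each of which a gene is represented by its brightest tested probe set. From gd14 to gd16 the median change of all 12592 tested genes was 0.09 on the log2 scale, and -0.08 when arrays were scaled to 1 median instead, a setting under which the share of rises among called genes went from 54% to 22.7%. Counts in the lists are read against 11.4% of genes that rose and 9.75% that fell. Of the 6 genes with a W2 or related domain, 5 were tested, with a median of -0.14, and 1 rose. It was Eif4g3, a scaffold of cap-dependent initiation, from 915.3 ± 152 to 1482 ± 224 (0.68 ± 0.21, adjusted p 0.0307); it was not called with median scaling (adjusted p 0.1) or without gd14 sample 10 or 11 or gd16 sample 7 or 8 (0.0752 to 0.112). Bzw1, Eif5, Eif2b5, the catalytic subunit of eIF2B, and Eif4g2, which initiates without the cap-binding protein, were not called on their brightest probe sets. A different probe set of Eif4g2 fell at this step (-0.61, adjusted p 0.00197), as did the probe sets of Bzw1 and Eif5 described above.

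The preinitiation complex, in which the small ribosomal subunit scans for a start codon, had 20 of 25 listed genes tested. Of these 2 rose and 7 fell at gd16, with a median of -0.03. Without gd16 sample 7 the counts were 2 and 6. Eif5b, the GTPase that joins the ribosomal subunits, fell from 2544 ± 431 to 1055 ± 303 (-1.27 ± 0.18, adjusted p 0.000139). Eif3i, a subunit of eIF3, fell from 8393 ± 373 to 4181 ± 1380 (-1.05 ± 0.18) and rose again to 6466 ± 416 at gd18 (adjusted p 0.0278). The later rise was not called with only the arrays compared (0.0947), with no mean-variance trend (0.0586), or without gd16 sample 7 or 9 or gd18 sample 4 or 5 (0.0819 to 0.128). Abce1, which recycles ribosomes, fell from 2668 ± 625 to 1578 ± 177 (-0.72 ± 0.18; adjusted p 0.061 without gd14 sample 12), and Eif2s2, the beta subunit of eIF2, to which eIF5 and Bzw proteins bind, fell from 9605 ± 1220 to 6084 ± 243 (-0.65 ± 0.12, adjusted p 0.00137). Another eIF3 subunit went the other way, as Eif3e rose from 22920 to 32260 ± 2640 and fell to 21310 ± 524 at gd18 (-0.59 ± 0.09, adjusted p 0.000406).

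Of 17 genes of eIF2B, which recharges eIF2 with GTP, and of cap binding, 15 were tested, and 3 rose and 3 fell, with a median of 0.07. Without gd16 sample 7 the counts were 2 and 3. Pabpc1, the poly(A)-binding protein, rose from 17870 ± 2680 to 26850 ± 1490 (0.60 ± 0.12, adjusted p 0.0018). Eif2b3, the gamma subunit of eIF2B and part of its catalytic subcomplex, had risen from 706.6 ± 155 at gd12 to 2110 ± 250 at gd14 (1.55 ± 0.19, adjusted p 1.82e-05) and fell to 1080 ± 141 at gd16 (-0.95 ± 0.19). The RNA helicase Eif4a1 fell from 8391 ± 928 to 5225 ± 1270 (-0.70 ± 0.16) and the cap-binding repressor Eif4e2 from 3057 ± 193 to 2131 ± 94.3 (-0.51 ± 0.11). With median scaling 1 gene of this list rose and 3 fell.

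The kinases of eIF2 and the response driven by ATF4, a factor to which Bzw proteins have been linked, had 1 call at this step. All 29 genes were tested, 1 rose, none fell, with or without gd16 sample 7, and the median was 0.05; at an unadjusted p under 0.05 there were 4. The one was Slc3a2, the heavy chain of amino acid transporters, from 992.8 ± 146 to 1534 ± 162 (0.62 ± 0.13, adjusted p 0.00396). Atf4 itself had means of 1677 and 1199 (-0.50 ± 0.18, adjusted p 0.061). From gd18 to pnd2, where 8.51% of genes rose and 6.84% fell, 4 of the 29 rose and none fell, with a median of 0.21 against -0.03 for all genes. The cystine transporter Slc7a11 rose there from 87.64 ± 33.9 to 326.2 ± 34.5 (1.63 ± 0.29, adjusted p 0.00106). The stress protein Nupr1 rose from 76.68 ± 9.31 to 268.3 ± 106 (1.42 ± 0.32, adjusted p 0.00657, and 0.0574 without pnd2 sample 1). Slc7a11, Nupr1 and Chac1, another of the 4 (52.67 to 150.6), had means above the filter value of 116.05 only at pnd2. They were tested only because of their pnd2 signal, so for them the filter favours a rise at this step.

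Of 27 genes of translational control in germ cells, 23 were tested, and at gd16 2 rose and 8 fell, with a median of -0.24. Without gd16 sample 7 the counts were 2 and 7. Meioc, which holds germ cells in meiotic prophase by turning over mRNAs, fell from 5811 ± 1200 to 1329 ± 326 (-2.11 ± 0.43, adjusted p 0.00249), after a rise from 85.95 ± 90.9 at gd12 (5.89 ± 0.43). The RNA-binding protein Dazl fell from 10370 ± 1460 to 3515 ± 154 (-1.54 ± 0.40, adjusted p 0.0125), the helicase Ddx4 from 8200 ± 1480 to 3287 ± 237 (-1.30 ± 0.38, adjusted p 0.0236), and Igf2bp1, which stabilizes mRNAs, from 440.3 ± 49.6 to 188.8 ± 59.8 (-1.13 ± 0.27). Without gd14 sample 12 the adjusted p of Dazl was 0.0528 and that of Ddx4 0.0933, and without gd16 sample 7 or 8 that of Ddx4 was 0.0547 or 0.0662. The summed germ cell markers, which share Dazl and Ddx4 with this list, were 2.21-fold higher at gd14 than at gd16. From gd18 to pnd2 Btg4, which clears maternal mRNAs, rose from 170.1 ± 70.9 to 3727 ± 1540 (4.19 ± 0.31, adjusted p 9.04e-08).

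**Figure D5:**
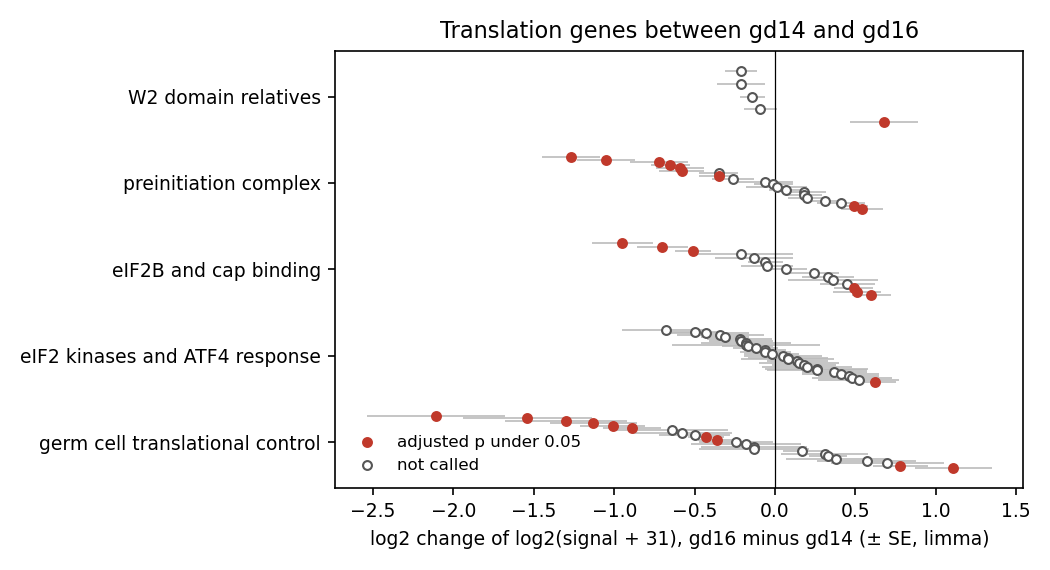
Change from gd14 to gd16 of each tested gene of 5 lists of translation genes (x axis, log2 scale, ± SE of the limma fit); filled points are genes with an adjusted p under 0.05. The preinitiation complex holds 2 filled points to the right of 0 and 7 to the left, and germ cell translational control 2 and 8.

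Germ cell control had the most calls of the lists at the remaining steps except gd16 to gd18. The lists are of unlike size, with 5 (W2), 20 (preinitiation), 15 (eIF2B and cap binding), 29 (ATF4) and 23 (germ cell) tested genes. From gd11 to gd12, where 3.30% of genes rose and 1.41% fell, none of the W2 domain, preinitiation and eIF2B genes was called by limma (2, 2 and 0 of them at an unadjusted p under 0.05), 1 gene of the ATF4 list rose and 1 fell, and 5 germ cell genes rose and 1 fell. From gd12 to gd14, where 11.6% rose and 8.01% fell, 10 of the 23 germ cell genes rose and 4 fell, 2 preinitiation genes rose and 1 fell, 2 eIF2B and cap binding genes rose, and none of the 29 genes of the ATF4 list was called (5 at an unadjusted p under 0.05). From gd16 to gd18, where 4.95% rose and 3.25% fell, 1 preinitiation gene rose and 3 fell, 1 gene of eIF2B and cap binding fell, 1 gene of the ATF4 list rose and 2 fell, and 3 germ cell genes rose. From gd18 to pnd2, where 8.51% rose and 6.84% fell, 3 preinitiation genes rose and none fell. In the same step 1 gene of eIF2B and cap binding rose and 1 fell, and 4 germ cell genes rose and 5 fell. No gene of the W2 list was called by limma at either of these steps (none at an unadjusted p under 0.05). Leaving out each array in turn moved the small counts: among preinitiation genes, rises went to 0 to 1 from gd12 to gd14 and 0 to 3 from gd18 to pnd2, and falls to 1 to 4 from gd16 to gd18. For the ATF4 list, falls from gd16 to gd18 went to 1 to 4 and rises from gd18 to pnd2 to 2 to 5. For germ cell control, rises from gd16 to gd18 went to 0 to 2, whereas from gd12 to gd14 they were 9 to 10 with 3 to 4 falls, and from gd18 to pnd2 they were 3 to 4 with 4 to 5 falls.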

How the data were processed

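Signal intensities were used as the authors deposited them, on a linear scale, made with GCOS per the submitters' processing notes. For GCOS, the version, settings and background step were not given in the sources used here. A trimmed mean of 500 on each array (leaving out 2% at each end) was checked in the files. Values became log2(signal + 31), with the 25th percentile of ovary values as pseudocount. A probe set was tested if its mean exceeded 116.05 in at least 1 stage, which left 26431 of 45101 (64 controls left out). The annotation gave 1 gene for 34945 probe sets, several for 932 and no gene for 9160. A gene was represented by its brightest tested probe set (12592 genes). Consecutive stages were compared over the 18 ovary arrays with limma 3.58.1 in R 4.3.3 (data.table at version 1.17.8), with 1 term per stage, a mean-variance trend and 12 residual degrees of freedom. Tests were two-sided with Benjamini-Hochberg adjustment over all tested probe sets, and a call is an adjusted p under 0.05. Arrays have no count depth, and their number limits the precision. The fit was also run on simulated data with independent noise and no array effects, so that run does not test the calls made here.

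Bzw2, the lists and the rule for named genes were chosen with earlier results of these data known. The rule named all probe sets of Bzw2, Bzw1 and Eif5, up to 4 called genes of each list at gd16 with the largest change, 2 per list in any other comparison, the 10 genes most like 1424608_a_at and 4 for each other Bzw2 probe set (clone and predicted names passed over), and the neighbours on the chromosome. Sequences and coordinates are from RefSeq, build GRCm38.p6. Alternatives were a pseudocount of 8 or 116, quantile normalization, median scaling, no filter, a filter at 507.26 (the 75th percentile), only the arrays compared, no trend, the average of gd11 samples 18 and 19 as 1 sample, array quality weights, averaging a gene's tested probe sets, other measures of likeness, and leaving out each array. Leaving out gd16 sample 7 for the markers and for the spread between probe sets, and gd16 sample 7 with gd14 sample 10 for the ratio, were chosen after seeing the data.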

Additional observations from a re-analysis of the deposited data

How the results depend on the processing

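The gd16 minus gd14 difference of 1424608_a_at ran from 4.30 to 5.30 over 16 alternatives (15 for 1443227_at, which the filter at the 75th percentile leaves out), that of 1423456_at from -0.04 to 0.30 and that of 1443227_at from -0.15 to 0.26, so neither of the latter has a settled sign. Leaving out each array gave 4.30 to 5.30, -0.02 to 0.30 and -0.15 to 0.26. No Bzw2 probe set was called from gd11 to gd12 under any alternative run, a test that is not independent of the choice of the gene. Leaving out arrays gave 0.21 to 0.61, -0.63 to -0.21 and 0.04 to 0.27.

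At gd16 the main fit called 1441 of all tested genes higher and 1228 lower. Median scaling called 562 higher and 1915 lower, and quantile normalization 1295 and 1287. For list members, median scaling gave 0 higher and 2 lower for W2 domain relatives and 1 higher and 9 lower for the preinitiation complex. It gave 1 higher and 3 lower for eIF2B and cap binding, and 1 higher and 3 lower for the ATF4 list. Shares over all genes under the other settings are not given here. Averaging a gene's tested probe sets gave 0 higher and 1 lower, 1 higher and 1 lower, and 1 lower for the W2, eIF2B and ATF4 lists. Quantile normalization gave 1 W2 gene lower, array quality weights 1 ATF4 gene lower, and the filter at the 75th percentile 4 preinitiation genes higher and 1 ATF4 gene lower. Leaving out each array gave 0 to 1 higher and 0 lower for W2, 2 to 3 higher and 5 to 6 lower for preinitiation, 2 to 4 higher and 3 lower for eIF2B, 1 to 4 higher and 0 to 1 lower for ATF4, and 2 to 3 higher and 5 to 8 lower for germ cell control. Tspan13 changed sign with median scaling (-0.07), and leaving out each array gave -0.02 (without gd16 sample 8) to 0.23. The causes were not tested.

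Probe sets called from gd11 to gd12 were 1089, and 438 with only the arrays compared, 687 with samples 18 and 19 averaged, 629 without gd11 sample 16 and 339 without gd12 sample 14. From gd12 to gd14 they were 4355, and 2702 and 2604 without gd12 samples 13 and 15. From gd14 to gd16 they were 4965, and 2927 without gd14 sample 12. From gd16 to gd18 they were 2003, and 898 with only the arrays compared and 1156, 1136 and 1177 without gd16 sample 7 and gd18 samples 4 and 5. From gd18 to pnd2 they were 3432, and 2163 without gd18 sample 6 and 1822 without pnd2 sample 1. No paired analysis was possible because sample numbers are unique to a stage. Signals near the dim end limit what can be read from 1443227_at, whose pnd2 mean of 112.12 lies under the filter value of 116.05.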
